A study of Mus musculus with 4 samples.

Results

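Mitochondrial ribosomal proteins are the nucleus-encoded proteins of the ribosome that works inside mitochondria, the mitoribosome. The members are all protein-coding rows of the deposited table whose symbol is Mrps or Mrpl followed by a number, 78 of 14934 genes in all. By name, 29 of them (Mrps) belong to the small subunit and 49 (Mrpl) to the large subunit. All 78 passed the filter on low counts and stood among the 11563 genes tested. RNA was sequenced from JAML-positive CD8 T cells (2 libraries, A and B) and JAML-negative CD8 T cells (2 libraries, A and B), separated by flow cytometry from hepatocellular carcinoma of mice. JAML is an adhesion and costimulatory receptor of the immunoglobulin superfamily. Cells of both groups had the WT genotype and no treatment is recorded. Age, tumour model, number of animals and whether A and B came from separate animals are not given in the labels. The p-values therefore rest on how far the 2 libraries of a group lie apart, which the fit partly shares over genes. That distance may be technical.

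The mitoribosome translates the few messenger RNAs made from mitochondrial DNA, which code for core subunits of the respiratory chain and of ATP synthase. Its ribosomal RNAs are made in the mitochondrion, while its proteins are made in the cytosol and imported, so the nuclear and mitochondrial genomes both supply the particle. The small subunit binds and decodes the messenger RNA, and the large subunit joins the amino acids and lets the new chain out at the inner membrane. Some proteins have a bacterial counterpart, and others are found only in mitochondria. In cytotoxic T cells, translation in mitochondria is known to be needed for sustained killing.

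Library totals were 27717149 and 30569728 counts in JAML-positive cells and 27819178 and 27530187 counts in JAML-negative cells. Levels are given as counts per 1000000 (CPM) on the TMM scale. The cells were sorted on the protein of Jaml. Jaml mRNA was at 137 and 147 CPM in JAML-positive cells against 130 and 116 CPM in JAML-negative cells. The groups did not overlap, but the difference was small and did not pass the test (log2 fold change 0.20, SE 0.26, edgeR adjusted p = 0.881). The T cell markers Cd3e, Cd3d, Cd8a, Cd8b1 and Cd2 summed to 3190 and 2850 CPM in JAML-positive and 2950 and 2840 CPM in JAML-negative libraries, and none was at 0. NK cell genes summed to 130 and 152 CPM in JAML-positive and 145 and 141 CPM in JAML-negative libraries, and hepatocyte genes to 14.5 and 14.8 CPM in JAML-positive and 23.9 and 4.24 CPM in JAML-negative libraries, both with overlapping groups. The T cell sums overlapped as well, and the marker sums that follow did not. The 6 dendritic cell and MHC class II genes summed to 361 and 201 CPM in JAML-positive and 64.1 and 55.7 CPM in JAML-negative libraries, with Xcr1 at 0 in JAML-positive replicate B. The B and plasma cell genes Cd79a, Cd79b, Ms4a1, Jchain and Mzb1 summed to 124 and 84.7 CPM in JAML-positive and 10.4 and 18 CPM in JAML-negative libraries. Of these, Cd79a was at 0 in JAML-positive replicate A and JAML-negative replicate A, Ms4a1 in JAML-negative replicate B, and Mzb1 in both JAML-negative libraries. The 4 plasmacytoid dendritic cell genes, led by Siglech, summed to 189 and 152 CPM in JAML-positive and 68.5 and 63.6 CPM in JAML-negative libraries. The 7 macrophage genes summed to 188 and 134 CPM in JAML-positive and 61.4 and 62.6 CPM in JAML-negative libraries, and the 2 red cell genes to 49.4 and 12.6 CPM in JAML-positive and 0 and 0.0362 CPM in JAML-negative libraries. JAML-positive replicate A stood apart, with 12.6% of its scaled counts in cytosolic ribosomal protein genes against 7.75% in JAML-positive replicate B and 8.67% and 8.57% in the JAML-negative libraries. The part of these differences in the results below was not tested.

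No mitochondrial ribosomal protein gene passed the test between JAML-positive and JAML-negative cells, but most had higher values in JAML-positive cells. Fold changes are log2 ratios of JAML-positive over JAML-negative from edgeR's quasi-likelihood test, with p-values adjusted over all tested genes and a threshold of 0.05. Of the 78 genes, 61 (78.2%) had a fold change above 0, against 5866 of 11563 tested genes (50.7%). Their median was 0.40, and that of all tested genes 0.01. With edgeR, 0 of the 78 passed in either direction (adjusted p from 0.609 to 0.996), beside a background of 0.0% of tested genes in each direction. At an unadjusted p below 0.05, 6 members were higher (7.69%) beside 4.32% of tested genes, and 0 were lower beside 3.34%. That count of 6 was 1 without JAML-positive replicate A, 9 without JAML-negative replicate A and 2 with edgeR's earlier quasi-likelihood method. With limma-voom 0 members passed the adjusted threshold. With DESeq2 3 were higher, which is 3.85% beside a background of 4.64%, and 0 were lower, beside 3.02%.

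The 2 libraries of each group did not overlap for 30 members. In 27 of them (34.6%) the JAML-positive pair was the higher one, beside 20.3% of tested genes. In 3 (3.85%) it was the lower one, beside 18.2% of tested genes. Compared with all tested genes, the spread between replicates was wider for these genes in JAML-negative cells and similar in JAML-positive cells. The median absolute difference between A and B, on the log2(CPM + 0.5) scale, was 0.53 in JAML-positive and 0.73 in JAML-negative cells, against 0.52 and 0.51 over all tested genes. In 19 members (24.4%) the difference between group means was larger than both differences between replicates, beside 25.6% of tested genes, so by that measure the members did not stand out. A higher bulk level from more cells of a type and from more RNA per cell cannot be told apart in these libraries.

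Summed over all 78 genes, mitochondrial ribosomal protein transcripts made up 2807 and 2090 CPM in JAML-positive cells and 1931 and 1877 CPM in JAML-negative cells. These were 2449 ± 507 CPM and 1904 ± 38.0 CPM (SD, n = 2 each). Both JAML-positive libraries were above both JAML-negative ones, and most of the distance lay in JAML-positive replicate A, which held the highest value of 47 of the 78 genes. JAML-positive replicate B held the highest value of 14, and JAML-negative replicates A and B of 8 and 9. Without JAML-positive replicate A, 47 of the 78 had a fold change above 0 and the median was 0.23. Leaving out JAML-positive replicate B instead gave a median of 0.63.

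The subunits were alike in their medians. Small subunit genes had a median log2 fold change of 0.40, with 23 of 29 above 0, and large subunit genes a median of 0.41, with 38 of 49 above 0. Summed small subunit transcripts were at 913 and 648 CPM in JAML-positive cells and 678 and 521 CPM in JAML-negative cells, and the groups overlapped. Large subunit transcripts summed to 1894 and 1442 CPM in JAML-positive cells and 1253 and 1356 CPM in JAML-negative cells, and did not overlap. The ratio of large to small subunit sums was 2.07 and 2.23 in JAML-positive cells, inside the 1.85 and 2.60 of the JAML-negative replicates. Non-overlapping higher values were found for 7 of 29 small (24.1%) and 20 of 49 large subunit genes (40.8%), beside 20.3% of tested genes, so the small subunit share was near the background. Non-overlapping lower values were found for 1 small (3.45%) and 2 large subunit genes (4.08%), beside 18.2%. Whether the subunits differ in this was not tested. The large subunit median depended most on JAML-positive cells: it was 0.22 without replicate A and 0.70 without replicate B. The small subunit median was lowest, at 0.17, without JAML-negative replicate B and highest, at 0.55, without JAML-negative replicate A.

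**Figure D1:**
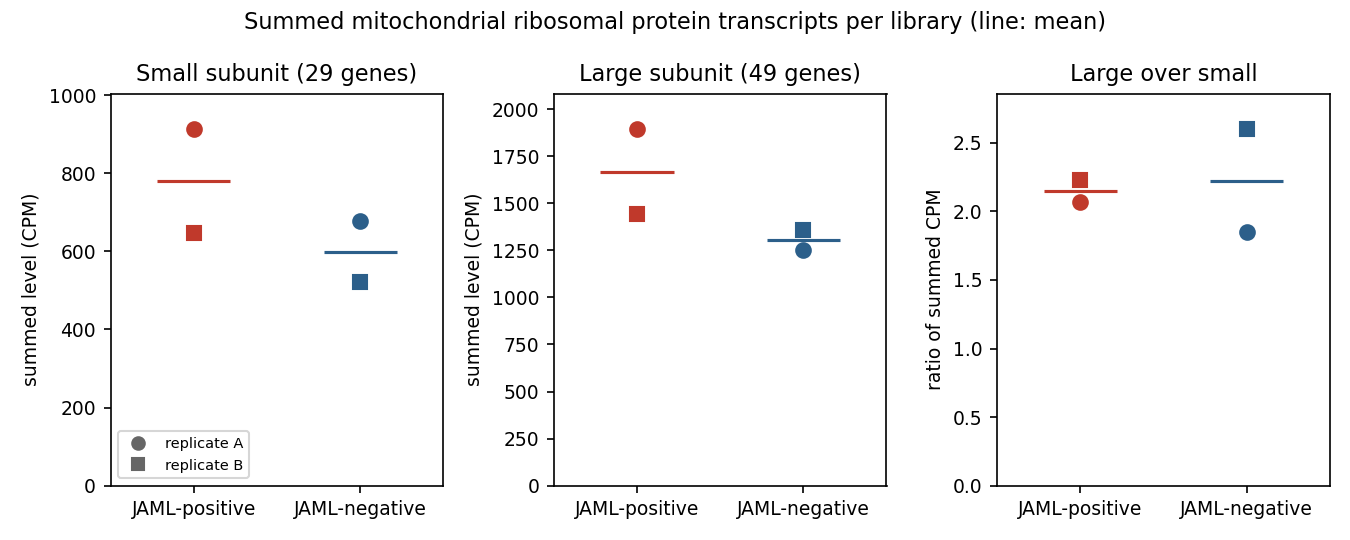
Summed level in CPM of the 29 small and 49 large subunit genes, and the ratio of the sums, in each library. Circles are replicate A, squares replicate B and lines the group mean. The large subunit sums of JAML-positive cells (1894 and 1442 CPM) lie above those of JAML-negative cells (1253 and 1356 CPM), while the small subunit sums and the ratios overlap.

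Fold changes went with transcript length, and many mitochondrial ribosomal protein mRNAs are short. Among tested genes with a main transcript under 1000 nucleotides the median fold change was 0.31, and it was 0.45 for the 25 members of that length. From 1000 to 2000 nucleotides the values were 0.15 for all and 0.38 for 28 members. Above 2000 nucleotides they were -0.04 for all and 0.40 for 25 members, of which 22 were above 0. That class holds Mrps16, Mrps26, Mrpl32, Mrpl51 and Mrpl57, whose annotated transcript is longer than the span of their RefSeq gene, so their class is uncertain. The trend of the fold change with transcript length and GC content was fitted over the 11113 tested genes with an annotated transcript. After its removal, 49 of 78 members were above 0 and their median was 0.27. It was then 0.22 for the small and 0.31 for the large subunit. The median of all genes, 0.01, is held in place by the method.

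Origin was taken from a list that places Mrpl55 with the bacterial counterparts, although Mrpl55 is known as a mitochondria-specific protein. Mrpl55 had a log2 fold change of 1.92, higher without overlap, and every count and median by origin below includes it on that side. By this list, the 48 members with a bacterial counterpart had a median of 0.42, with 42 above 0. In 18 of them (37.5%) the JAML-positive libraries lay above without overlap, and in 0 below. The 30 members listed as found only in mitochondria had a median of 0.33, with 19 above 0. Of these 30, 9 were non-overlapping higher (30%) and 3 non-overlapping lower (10%). The shares over all tested genes were 20.3% higher and 18.2% lower. All 3 non-overlapping lower members and 5 of the 6 with the smallest p therefore came from the mitochondrial additions. Without JAML-positive replicate A the medians were 0.29 for those with a bacterial counterpart and 0.06 for those without. The difference between these classes was not tested.

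**Figure D2:**
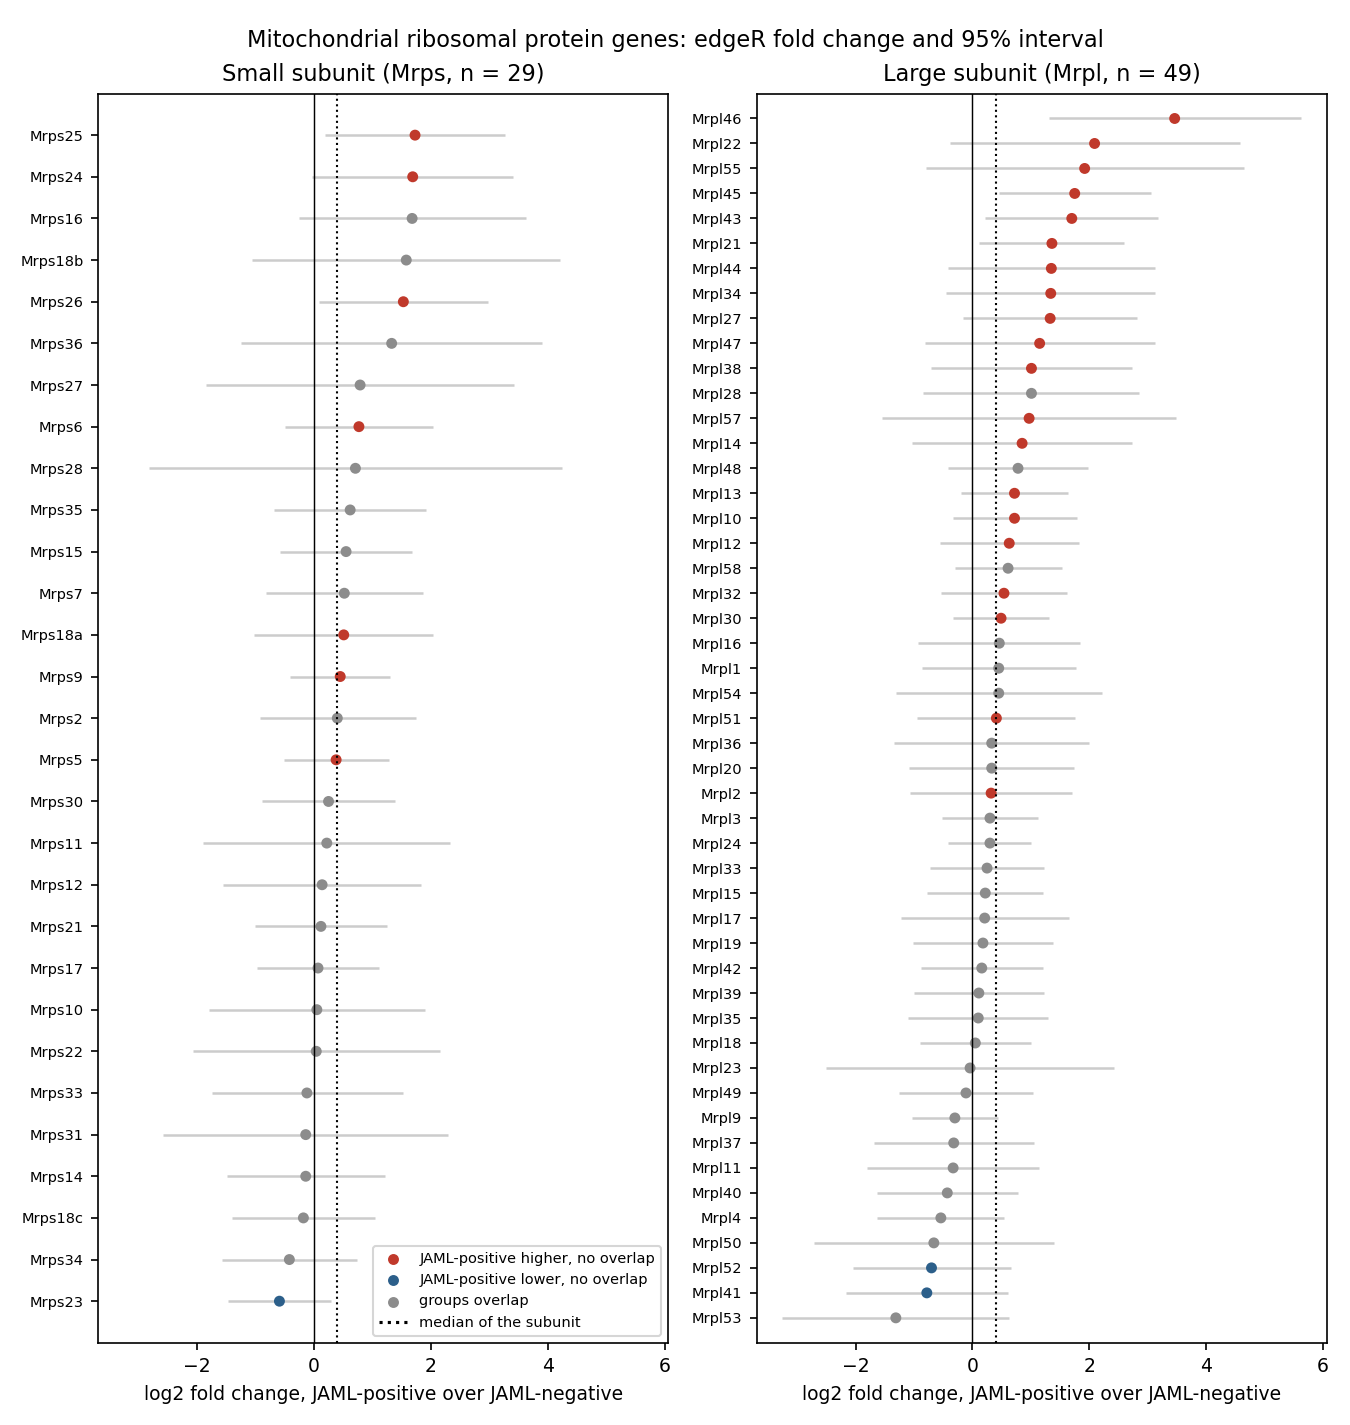
Log2 fold change (points) with its 95% interval from edgeR (lines) for each small subunit gene (left) and large subunit gene (right), JAML-positive over JAML-negative. Red points are genes whose JAML-positive libraries both lie above the JAML-negative ones, blue points those that lie below, grey points overlap, and the dotted lines mark the subunit medians of 0.40 and 0.41. Most points lie right of 0 with intervals that reach across it.

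In the large subunit, the smallest p belonged to Mrpl46, a mitochondria-specific protein of the central protuberance. It was at 29.7 and 28.5 CPM in JAML-positive cells and 5.16 and 0.0362 CPM in JAML-negative cells. Its JAML-negative replicate B held 1 read, against 146 in replicate A, so the size of its fold change rests on a nearly empty library (log2 fold change 3.46, SE 1.0, edgeR adjusted p = 0.609). Without that library the log2 fold change was 2.50. Mrpl46 starts 42 bases from Mrps11, a small subunit gene with a bacterial counterpart that is read in the opposite direction. Mrps11 was at 23.4 and 3.89 CPM in JAML-positive and 17.0 and 5.07 CPM in JAML-negative cells, so its groups overlapped (log2 fold change 0.22, SE 0.97). The bases between the starts of the pair, chr7:78783090-78783130 in GRCm38.p6, are shown from RefSeq on the strand of Mrpl46 (minus), 5′ to 3′, since these neighbours gave unlike values across so short a stretch.
Mrpl46: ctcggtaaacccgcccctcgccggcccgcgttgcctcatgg

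Mrpl45, which anchors the large subunit to the inner membrane beside the exit tunnel, was at 50.9 and 36.3 CPM in JAML-positive cells and 17.9 and 7.68 CPM in JAML-negative cells. The groups did not overlap, and the gene was well covered in all 4 libraries, with 212 to 1348 counts. The difference of 1.75 on the log2 scale (SE 0.60) had an adjusted p of 0.609 with edgeR and of 0.0216 with DESeq2. Leaving out any single library kept the fold change between 1.29 and 2.50. Mrpl21, with a bacterial counterpart, was at 35.0 and 41.0 CPM in JAML-positive and 18.2 and 11.5 CPM in JAML-negative cells, a log2 fold change of 1.36 (SE 0.57, edgeR adjusted p = 0.609, DESeq2 adjusted p = 0.0252).

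Mrpl43, a mitochondria-specific protein, was at 31.6 and 34.5 CPM in JAML-positive and 4.56 and 16.0 CPM in JAML-negative cells (log2 fold change 1.70, SE 0.68, edgeR adjusted p = 0.609). The JAML-positive replicates were close together, while the JAML-negative ones were far apart, and leaving out JAML-negative replicate A gave a fold change of 1.05 and leaving out replicate B one of 2.87. Over all annotated transcripts, exons of Mrpl43 share 33.4% of their bases with exons of Twnk, the helicase that unwinds mitochondrial DNA, on the other strand. Twnk pointed the other way: its counts were 383 and 498 in JAML-positive and 890 and 522 in JAML-negative cells, a log2 fold change of -0.73 (SE 0.64). The stretch between their starts, chr19:45006443-45006557 on the minus strand, holds the ETS core CCGGAAG at -56 and -12 from the Mrpl43 start (in capitals). The stretch between Mrpl21 and its opposite neighbour Ighmbp2, chr19:3283011-3283041 on the plus strand, holds none of the motifs searched. Ighmbp2 encodes a helicase and had a log2 fold change of 0.41 (SE 0.84). Both stretches come from RefSeq (GRCm38.p6) and are shown because members with large fold changes start there.
Mrpl43: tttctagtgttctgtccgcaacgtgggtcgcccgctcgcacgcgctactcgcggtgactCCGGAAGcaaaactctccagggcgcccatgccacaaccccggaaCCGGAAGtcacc
Mrpl21: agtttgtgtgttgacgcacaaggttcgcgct

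Mrpl27, whose bacterial counterpart lies near the peptidyl transferase centre, held 795 and 797 counts in JAML-positive and 434 and 179 counts in JAML-negative cells, without overlap (log2 fold change 1.33, SE 0.68, edgeR adjusted p = 0.613). Leaving out JAML-negative replicate A gave 2.09 and leaving out replicate B gave 0.86. The stalk that calls translation factors to the ribosome is built from Mrpl10, Mrpl11 and Mrpl12. Mrpl10, its base, was at 51.7 and 39.9 CPM in JAML-positive and 20.4 and 34.9 CPM in JAML-negative cells. Mrpl12, its mobile part, was at 36.3 and 29.2 CPM in JAML-positive and 17.7 and 24.3 CPM in JAML-negative cells. Both were without overlap, with log2 fold changes of 0.72 and 0.63. Mrpl11 pointed the other way, at 12.6 and 17.7 CPM in JAML-positive and 16.0 and 22.7 CPM in JAML-negative cells, with overlapping groups and a log2 fold change of -0.33 (SE 0.68).

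Lower values in JAML-positive cells were fewer and smaller. Mrpl53 had the most negative value in the large subunit, -1.31 (SE 0.89), at 6.49 and 8.33 CPM in JAML-positive and 28.8 and 8.15 CPM in JAML-negative cells. That rests on JAML-negative replicate A, without which it was -0.13. Mrpl41 was at 18.2 and 12.6 CPM in JAML-positive and 32.7 and 19.4 CPM in JAML-negative cells, without overlap (log2 fold change -0.78, SE 0.64, edgeR adjusted p = 0.780). Mrpl52 was at 18.6 and 13.5 CPM in JAML-positive and 21.1 and 30.3 CPM in JAML-negative cells, also without overlap (-0.70, SE 0.62). These 3 genes code for mitochondria-specific proteins. Mrpl4, whose bacterial counterpart lines the exit tunnel, and Mrpl9 had log2 fold changes of -0.54 and -0.30 with overlapping groups.

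In the small subunit, the smallest p belonged to a pair of mitochondria-specific proteins and to Mrps24, the counterpart of a bacterial protein at the messenger RNA entry channel. Mrps25 was at 42.6 and 25.1 CPM in JAML-positive and 15.5 and 4.42 CPM in JAML-negative cells (log2 fold change 1.73, SE 0.71, edgeR adjusted p = 0.609). Mrps26 was at 38.6 and 28.3 CPM in JAML-positive and 17.2 and 5.62 CPM in JAML-negative cells (log2 fold change 1.53, SE 0.67, edgeR adjusted p = 0.609). For both, JAML-negative replicate B was the lowest library. Without it the values were 1.12 and 0.96, and without JAML-negative replicate A 2.92 and 2.57. Mrps24 was at 27.2 and 17.8 CPM in JAML-positive and 7.84 and 5.94 CPM in JAML-negative cells, with replicates closer together (log2 fold change 1.69, SE 0.79, edgeR adjusted p = 0.609, DESeq2 adjusted p = 0.0347).

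Mrps16, a conserved protein whose loss causes an inherited respiratory chain disorder in humans, was at 37.7 and 13.1 CPM in JAML-positive and 13.3 and 1.92 CPM in JAML-negative cells, so the groups overlapped by a narrow margin (log2 fold change 1.68, SE 0.89). Its value was 0.78 without JAML-positive replicate A, and leaving out JAML-negative replicate A or B gave 3.69 or 0.92. Mrps6 was at 30.8 and 28.8 CPM in JAML-positive and 21.3 and 13.5 CPM in JAML-negative cells (log2 fold change 0.77, SE 0.58). Mrps23 was the 1 small subunit gene with non-overlapping lower values, at 44.4 and 35.6 CPM in JAML-positive and 65.7 and 53.6 CPM in JAML-negative cells (log2 fold change -0.59, SE 0.41, edgeR adjusted p = 0.723). Mrps34, Mrps18c, Mrps14 and Mrps33 had values of -0.42, -0.18, -0.14 and -0.12 with overlapping groups.

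**Figure D3:**
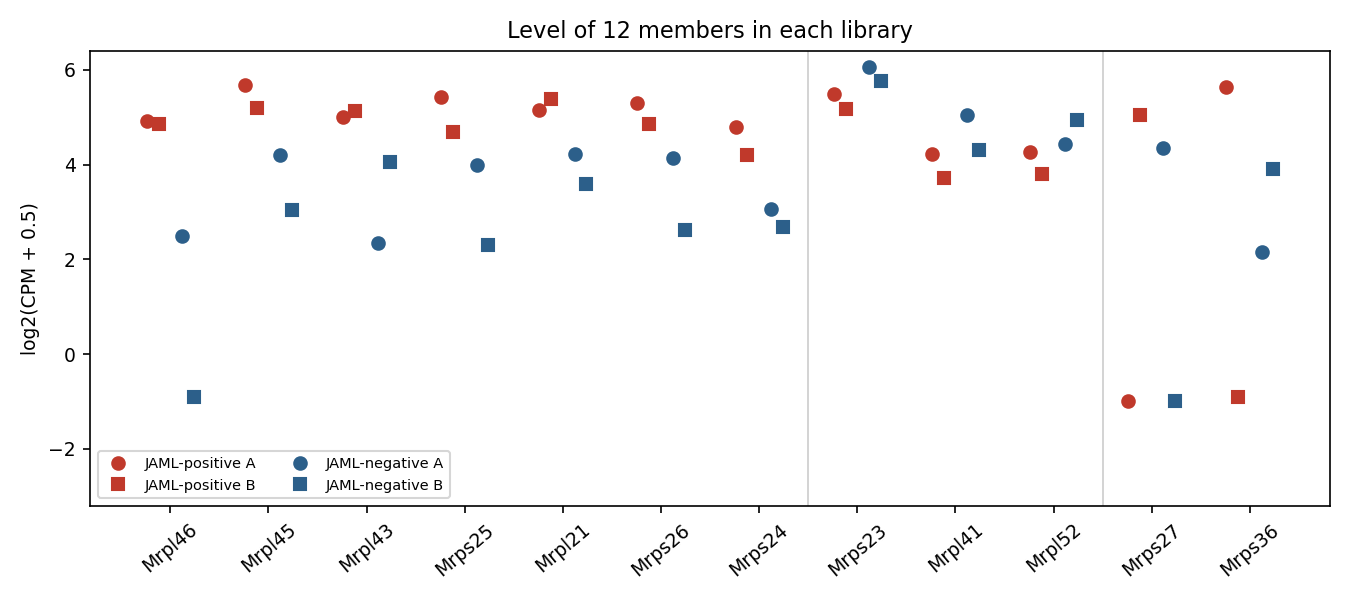
Level of 12 members in each library on the log2(CPM + 0.5) scale, JAML-positive left (red) and JAML-negative right (blue) within each gene, circles replicate A and squares replicate B. The left block holds 7 genes whose JAML-positive libraries lie above, the middle block the 3 whose JAML-positive libraries lie below, and the right block Mrps27 and Mrps36, where single libraries hold 0 or 1 read.

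Nearly empty libraries occurred among these genes. In 9 of the 78 (11.5%) a library held 3 counts or fewer while another held 100 or more, against 18.2% of the 11293 tested genes that reach 100. They were Mrpl22, Mrpl46, Mrps18b and Mrps27 in JAML-negative replicate B, Mrpl55, Mrps28 and Mrps31 in JAML-negative replicate A, Mrpl23 and Mrps36 in JAML-positive replicate B, and Mrps27 also in JAML-positive replicate A. Mrps27, an RNA-binding protein of the pentatricopeptide repeat family, held 0 and 1019 counts in JAML-positive and 561 and 0 counts in JAML-negative cells. It was thus at 0 in a library of each group and well covered in the other. Over the 69 members without such a library, 54 had a fold change above 0 and the median was 0.33.

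Some members do not sit where their names place them. Mrps18a and Mrps30 are part of the large subunit in the known structures. Mrps18a was at 19.5 and 19.0 CPM in JAML-positive and 9.39 and 17.7 CPM in JAML-negative cells (log2 fold change 0.51, SE 0.70). Mrps30 was at 34.1 and 33.0 CPM in JAML-positive and 36.3 and 19.8 CPM in JAML-negative cells (0.25, SE 0.52). Mrps36 is known as a component of the alpha-ketoglutarate dehydrogenase complex and not of the ribosome. It held 1299 and 1 counts in JAML-positive and 112 and 399 counts in JAML-negative cells, so its fold change of 1.33 has an SE of 1.18. Mrpl42, once counted with the small subunit, had a value of 0.16 (SE 0.48). Of the paralogues of Mrps18a, Mrps18b held 453 and 235 counts in JAML-positive and 224 and 0 counts in JAML-negative cells, and Mrps18c held 731 and 898 counts in JAML-positive and 521 and 1261 counts in JAML-negative cells. How reads that match more than 1 paralogue were counted is not given, and whether such reads occur was not examined. If they do, the values of the 3 are less certain.

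By the annotated transcript lengths used, levels of members per length differed widely, although the particle holds them in fixed numbers. For Mrps16, Mrps26, Mrpl32, Mrpl51 and Mrpl57 that length exceeds the span of the RefSeq gene, and for Mrpl17 it nearly fills it. Levels per length, and the members named as lowest, therefore depend on the transcript chosen. The mean over the 4 libraries ran from 2.43 CPM per 1000 nucleotides for Mrpl57 to 83.6 for Mrpl33, a ratio of 34.4, with a median of 16.0. The median was 11.7 for the small and 18.6 for the large subunit. In single libraries the small subunit median was 15.8 and 12.8 CPM per 1000 nucleotides in JAML-positive and 12 and 9.08 in JAML-negative cells. The large subunit median was 22.4 and 15.8 in JAML-positive and 12.8 and 14.2 in JAML-negative cells. The highest small subunit levels were those of Mrps21 (75.9), Mrps18c (47.2) and Mrps9 (40.8), all with bacterial counterparts. The lowest were those of Mrps28 (3.28), Mrps25 (3.61) and Mrps26 (5.24). In the large subunit Mrpl33, Mrpl24 (75.0) and Mrpl18 (74.6) were highest, and Mrpl57, Mrpl17 (2.74) and Mrpl47 (3.31) lowest. Fold changes of the 6 highest lay between -0.18 for Mrps18c and 0.45 for Mrps9 on the log2 scale.

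Exons of 22 members overlap exons of another gene of the table, in 24 pairs, 21 of them on opposite strands and 3 on the same strand. The treatment of strand in the counting is not given, and if strand was not used, reads from the overlapping parts of opposite genes cannot be told apart. For the same-strand pairs, Mrps24 with Urgcp, Mrps34 with Nme3 and Mrps6 with Slc5a3, strand cannot separate such reads. The shared part was largest for Mrps25, where 69.8% of exonic bases lie in exons of Nr2c2, a nuclear receptor gene. Nr2c2 had a log2 fold change of 0.09 (SE 0.30), against 1.73 for Mrps25. Mrps34 shares 63.4% with Mapk8ip3, a kinase scaffold gene, and 37.0% with Nme3, a nucleoside diphosphate kinase gene. Mrps34 was at -0.42, Mapk8ip3 at -0.64 (SE 0.34) and Nme3 at 0.49 (SE 0.89). Mrpl19 shares 36.0% with Gcfc2 (-0.75), Mrpl24 26.3% with Rrnad1 (0.28) and Mrps27 24.2% with 6430562O15Rik, which was below the filter. Actl6a, a chromatin remodelling subunit that overlaps Mrpl47, had a log2 fold change of 0.88 (SE 0.35, edgeR adjusted p = 0.609), beside 1.15 for Mrpl47. Apart from Mrpl43 and Twnk, the other pairs shared at most 15.4% of the member's exonic bases. Among them, Mrpl46 and Mrps11 share 12.2% of the exonic bases of Mrpl46 and 7.97% of those of Mrps11, and Mrps7 shares 6.13% with Gga3 (-1.90). The remaining neighbours Mtbp, Tmem63b, Tcp1, Ighmbp2, Eme1, Ndufs6, Wdfy1, Ndufb5, Rab6a, Syvn1, Urgcp, 4930473A02Rik, Slc5a3 and Mif4gd had log2 fold changes between -1.54 (Wdfy1) and 0.96 (Syvn1), with edgeR adjusted p from 0.609 up.

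Many members start close to a gene read in the opposite direction. RefSeq promoter windows, 250 bases before to 50 after the start, were matched for 69 of the 78. Of these, 23 (33.3%) had an opposite start within 500 bases upstream, against 18.3% of tested genes and 10.9% of all genes with a window. Over these 23 members the median fold change was 0.52 and that of their neighbours 0.22. Mrpl46 and Mrps11 are neighbours of each other, which leaves 22 distinct pairs, and 13 of these had the same sign. Another pair with unlike values was Mrps7, an early-binding small subunit protein in bacteria, and Gga3, a trafficking adaptor. Mrps7 was at 40.5 and 25.2 CPM in JAML-positive and 34.3 and 10.6 CPM in JAML-negative cells (log2 fold change 0.52, SE 0.62). Gga3 held 567 and 602 counts in JAML-positive and 1709 and 2505 counts in JAML-negative cells (log2 fold change -1.90, SE 0.46, edgeR adjusted p = 0.609). The stretch between their starts, chr11:115603917-115604139 on the plus strand (GRCm38.p6), is GC-rich and holds none of the motifs searched.
Mrps7: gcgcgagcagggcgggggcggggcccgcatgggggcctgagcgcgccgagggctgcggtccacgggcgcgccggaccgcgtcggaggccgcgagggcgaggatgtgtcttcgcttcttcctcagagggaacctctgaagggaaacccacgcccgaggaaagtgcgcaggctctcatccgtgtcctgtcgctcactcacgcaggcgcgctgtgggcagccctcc

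The motifs searched on both strands were those of factors known to act at genes of mitochondrial proteins. The ETS core CCGGAAG, bound by GABP among others, was in 26 of 69 member windows (37.7%), against 21.4% of tested genes and 9.93% of all genes. The YY1 word AAGATGGC was in 12 (17.4%), against 5.67% of tested and 3.19% of all genes. The NRF1 core GCATGCGC was in 8 (11.6%), against 6.13% and 3.05%. The E-box CACGTG, bound by MYC among others, was in 5 (7.25%), against 11.7% and 8.09%. CCGGAAG and AAGATGGC could share their AAG, but no member had overlapping matches of any pair of these motifs. Median fold changes with and without a match were 0.46 and 0.38 for ETS, 0.27 and 0.41 for YY1, 0.40 and 0.40 for NRF1, and 0.32 and 0.45 for the E-box. A match describes letters in the window and not a bound site.

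Genes that work with the mitoribosome had medians that moved with single libraries, and all but that of the aminoacyl-tRNA synthetases changed sign. Of the 5 mitoribosome proteins with other names, 4 were above 0, with a median of 0.37, which was -0.13 without JAML-negative replicate A. Chchd1, a small subunit protein, was at 25.9 and 19.9 CPM in JAML-positive and 5.19 and 7.25 CPM in JAML-negative cells (log2 fold change 1.87, SE 0.80, edgeR adjusted p = 0.609). Dap3, a GTP-binding small subunit protein, had a value of 0.37 (SE 0.39). Among 25 tested genes of mitoribosome assembly and rRNA modification, 12 were above 0 and the median was -0.12, against 0.34 without JAML-negative replicate B and 0.27 without JAML-positive replicate B. Rpusd4, which makes pseudouridine in mitochondrial RNA, had 1294 and 789 counts in JAML-positive and 434 and 283 counts in JAML-negative cells (1.5, SE 0.64). Mettl15, a methyltransferase of the small subunit rRNA, had 472 and 458 counts in JAML-positive and 114 and 1 counts in JAML-negative cells (2.97, SE 1.22). The 13 translation factors had a median of -0.00, with 6 above 0, and of 0.34 without JAML-negative replicate B. The 17 mitochondrial aminoacyl-tRNA synthetases had a median of 0.14, with 10 above 0, and of 0.55 without JAML-negative replicate A.

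Nuclear regulators had mostly lower values. Of 10 tested nuclear regulators of mitochondrial biogenesis, 9 were below 0, the median was -0.44 (from -0.73 to -0.34 when each library was left out), and in 6 (60.0%) the JAML-positive libraries lay below the JAML-negative ones without overlap, beside 18.2% of all tested genes. Ppargc1b, a coactivator of NRF1 and oestrogen-related receptors, had 164 and 277 counts in JAML-positive and 966 and 846 counts in JAML-negative cells (log2 fold change -2.09, SE 0.68, edgeR adjusted p = 0.609). Myc had 2029 and 3545 counts in JAML-positive and 4598 and 3879 counts in JAML-negative cells (-0.67, SE 0.29). The 1 regulator above 0 was Gabpa (0.11, SE 0.28). The 9 genes of mitochondrial DNA maintenance and transcription were mixed, with 6 below 0 and a median of -0.26, which became 0.85 when JAML-negative replicate A was left out and -0.77 when replicate B was. Polrmt, the mitochondrial RNA polymerase, was at -1.24 (SE 0.56) and its partner Tfb2m at -1.63 (SE 0.62), both with an edgeR adjusted p of 0.609. On the higher side without overlap were Ssbp1, the mitochondrial single-stranded DNA-binding protein, at 0.93 (SE 0.45), and the transcription elongation factor Tefm, with 96 and 262 counts in JAML-positive and 0 and 1 counts in JAML-negative cells.

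As fitted, the mRNAs that the mitoribosome translates and those of nuclear respiratory chain subunits leaned the same way as the members. All 12 tested mitochondrially encoded protein genes were above 0, with a median of 0.14. Once the length and GC trend was removed, 3 of the 12 were above 0 and the median was -0.18. Among the 12, ND6 had the smallest p, at 173 and 172 CPM in JAML-positive and 94.2 and 121 CPM in JAML-negative cells (0.68, SE 0.27, edgeR adjusted p = 0.609). Nuclear subunits of the respiratory chain had 68 of 79 above 0, with a median of 0.52, or 0.23 without that trend and 0.19 without JAML-positive replicate A. At an unadjusted p below 0.05, 13 of them (16.5%, beside 4.32% of all tested genes) were higher (Atp5b, Atp5e, Atp5g3, Atp5j, Atp5md, Cox7a2, Cyc1, Ndufa8, Ndufa12, Ndufc1, Ndufv1, Uqcr10 and Uqcr11) and 0 lower (beside 3.34%). Ndufc1 held 259 and 113 counts in JAML-positive and 1 and 1 counts in JAML-negative cells, and the log2 fold changes of the other 12 ran from 0.45 for Atp5b to 2.65 for Ndufa12. Cytosolic ribosomal protein genes had 81 of 83 above 0 with a median of 0.29, which was -0.03 without the trend and -0.17 without JAML-positive replicate A. Rpl35 (0.74) and Rps27a (0.66) were the 2 of them (2.41%, below the 4.32% of all tested genes) with an unadjusted p below 0.05, and counts of this family are uncertain where reads also match its pseudogenes. The median of the mitochondrial ribosomal proteins kept its sign in both settings, at 0.27 and 0.23. So did that of the nuclear respiratory chain subunits, at 0.23 and 0.19. The difference between these lists was not tested.

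**Figure D4:**
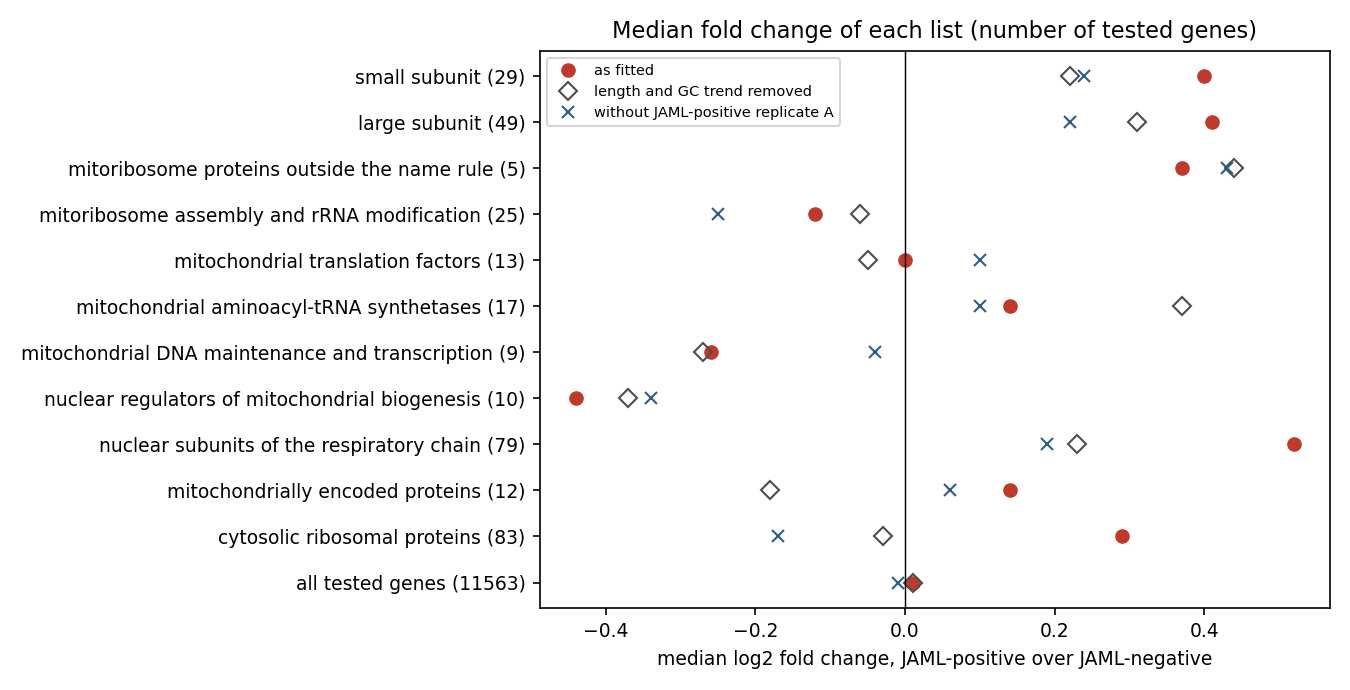
Median log2 fold change, JAML-positive over JAML-negative, of each list (number of tested genes in brackets) as fitted (filled circles), with the trend of length and GC content removed (diamonds) and without JAML-positive replicate A (crosses). Both mitoribosome subunits stay between 0.22 and 0.41, and the nuclear subunits of the respiratory chain between 0.19 and 0.52. The cytosolic ribosomal proteins pass from 0.29 to -0.03 and -0.17.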

How the data were processed

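The authors deposited a single table of counts for the 4 libraries, whole numbers with no normalization recorded. Per the submitters' processing notes it was made on GRCm38 (mm10). Per the labels' protocols, total RNA went into a SMARTER mRNA kit. Aligner, counter, annotation and strand setting: not given in the sources used here. Genes were kept by filterByExpr (minimum count 10) and tested with edgeR 4.0.16 in R 4.3.3 (TMM scaling, robust quasi-likelihood test, no covariate, Benjamini-Hochberg adjustment). The SE was derived as |log2 fold change| over the root of F. The fit was run on simulated counts only as a check of the code. Their replicates were closer together, and their planted changes larger than most changes reported here. DESeq2 1.42.0, limma 3.58.1 (voom), other scalings and filters, and leaving out each library were alternatives. Coordinates are RefSeq's (GRCm38.p6), and transcript length, GC content and exons are GENCODE M21's, on the same build. Length and GC content are those of the principal transcript, while exon overlaps take the exons of all transcripts of a gene together. The length and GC trend is a spline over the 11113 tested genes with an annotated transcript, and its removal keeps their median. Members, lists and the rule for named genes (smallest p in each subunit and direction, extreme levels per length, misplaced names, paralogues, stalk, exon overlaps) were chosen with earlier results of these data known. Libraries held 27530187 to 30569728 counts, and there were 2 per group. Not every marker gene is reported here.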

Additional observations from a re-analysis of the deposited data

How the results depend on the processing

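The count of genes past the threshold was 0 as fitted, 885 with DESeq2 (536 higher), 2 with at least 30 CPM and 2 with no filter on low counts. Members past it were 0, and 3 with DESeq2, where Mrps24 was at 1.69, Mrpl45 at 1.75 and Mrpl21 at 1.34. In the other settings run both counts were 0, with median-ratio size factors, limma-voom and scaling without cytosolic ribosomal protein counts among them. The large subunit median ranged from 0.22 to 0.70 and the small subunit median from 0.17 to 0.55 when each library was left out. With at least 30 CPM they were 0.25 for 20 genes and 0.17 for 9 genes. With the replicate block 0 genes and 0 members passed, and both subunit medians were 0.41. Deviations of A libraries from their group means correlated at 0.0176 across genes, so the letters showed no shared shift over all genes. Among the 78 members, A was above B for 58 in JAML-positive and 45 in JAML-negative cells, against 5733 and 5749 of 11563 tested genes. For the 29 small subunit genes these counts were 23 and 21, and for the 49 large subunit genes 35 and 24. With 2 libraries per group these values cannot settle whether the letters mark a shared animal, sort or batch. Signs changed for 16 members without JAML-positive replicate A, 14 without JAML-positive replicate B, 7 without JAML-negative replicate A, 19 without JAML-negative replicate B and 12 without the length and GC trend. The earlier quasi-likelihood method of edgeR, chosen after seeing the data, called 0 genes.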

Other observations

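Among genes around mitochondrial translation, Lars2 and Mrm2 were chosen after their values were seen. Lars2, the mitochondrial leucyl-tRNA synthetase, held 55723 and 6177 counts in JAML-positive and 1056 and 4975 counts in JAML-negative cells, so nearly all of its difference came from JAML-positive replicate A (edgeR adjusted p = 0.722). Slirp, which stabilises mitochondrial messenger RNA, held 234 and 176 counts in JAML-positive and 2 and 0 counts in JAML-negative cells. Mrm2, a methyltransferase of the large subunit rRNA, held 130 and 116 counts in JAML-positive and 0 and 0 counts in JAML-negative cells. The edgeR adjusted p was 0.609 for both Slirp and Mrm2.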
